A study of Homo sapiens with 12 samples.

Results

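The 44 genes described here are all genes of the count table named COL, a number, A and a number, which is how the alpha chains of the collagens are named, out of 60583 genes listed. They were divided by textbook structure into 11 fibrillar collagens, 8 basement membrane collagens and 25 others. The cells were cardiomyocytes derived from RUES2, an established human embryonic stem cell line of wild-type genotype. From day 50 of culture they stood for 3 days on electrospun fibre scaffolds, either conductive 9.75% PEDOT:PSS/PVA (called PEDOT here, the conducting polymer blend PEDOT:PSS with polyvinyl alcohol) or non-conductive 8% polyvinyl alcohol (called PVA). Each scaffold had biological replicates 1, 2 and 3 with 2 technical libraries each, 12 libraries of ribodepleted total RNA in all. What a replicate number stands for, such as a differentiation or a day, is not given in the labels, so p-values measure the spread between these samples, which may be technical.

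Collagens are extracellular proteins built of 3 chains wound into a triple helix, so several genes often contribute to 1 protein. Fibrillar collagens such as types I and III form the cable-like fibrils of the heart's interstitium and are made mainly by fibroblasts, while type V starts the fibrils. Type IV collagens form the sheet-like network of basement membranes, which surround every cardiomyocyte, and types XV and XVIII stand at its borders. The other collagens include the beaded filaments of type VI, the short-chain network of type VIII, chains that sit on fibril surfaces (FACIT collagens) and chains anchored in the cell membrane. New chains are hydroxylated and folded with chaperones in the endoplasmic reticulum, trimmed outside the cell and cross-linked.

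Library totals were 19.1 to 30.95 M counts, and the technical libraries of each replicate were summed, which gave 6 sums of 44.5 to 57.5 M counts. Levels are in CPM, the count scaled to the size of its library with TMM factors, and are given per kb of exon where genes are set beside each other. The 8 cardiomyocyte markers together had 62810, 85441 and 78450 CPM on PEDOT and 55102, 72726 and 74702 CPM on PVA in replicates 1, 2 and 3. TTN and MYH6 made up most of these values, which are not scaled for length. A total of 21298 genes passed the filter on low counts, 41 of the 44 collagens among them. COL6A5 (a type VI chain), COL10A1 (the network collagen of growth cartilage) and COL17A1 (the transmembrane collagen of hemidesmosomes) did not. COL6A5 had 0 to 6 counts in a library, COL17A1 0 to 7 and COL10A1 2 to 12.

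Collagen genes took 1.26, 0.440 and 0.867% of all counts on PEDOT and 0.903, 0.434 and 0.843% on PVA in replicates 1, 2 and 3. Replicate 2 had the lowest share on both scaffolds. Fibrillar collagens set this pattern, at 0.830, 0.156 and 0.454% of counts on PEDOT and 0.491, 0.143 and 0.405% on PVA. Basement membrane collagens varied less, at 0.263, 0.208 and 0.260% on PEDOT and 0.266, 0.213 and 0.267% on PVA. The remaining collagens took 0.164, 0.0765 and 0.152% on PEDOT and 0.146, 0.0774 and 0.171% on PVA. Within the collagen counts, fibrillar genes therefore ranged from 32.97 to 66.0% over the 6 sums and basement membrane genes from 20.96 to 49.2%, and basement membrane genes were the larger class in replicate 2 on both scaffolds.

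**Figure D1:**
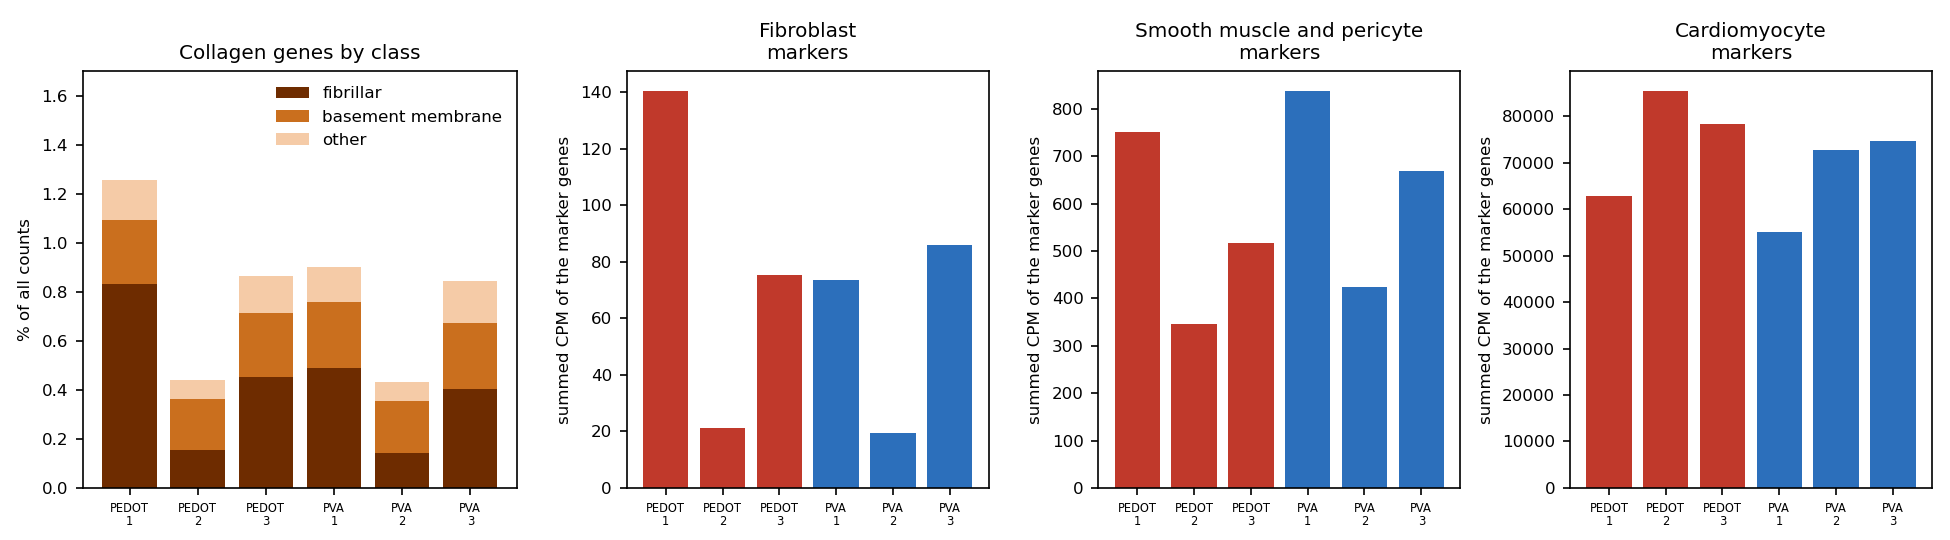
The left panel stacks the share of all counts (%) of fibrillar, basement membrane and other collagens in the 6 sums, and the other panels give the summed CPM of 8 fibroblast, 8 smooth muscle and pericyte, and 8 cardiomyocyte markers (red, PEDOT; blue, PVA). The fibrillar part of the bars is smallest in replicate 2 on both scaffolds (0.156% on PEDOT, 0.143% on PVA), where the fibroblast markers are also lowest (21.3 and 19.6 CPM).

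No collagen gene was called between PEDOT and PVA when the scaffold was the only term (edgeR's quasi-likelihood test, Benjamini-Hochberg adjusted p under 0.05), and none of all 21298 genes was (0%). At an unadjusted p under 0.05 there was 1 collagen, COL11A2, of 41, beside 0.892% of all genes, and DESeq2 also called 0 collagens. With the replicate number as a block, which compares the scaffolds within same-numbered replicates, COL11A2 was the 1 collagen called. It was higher on PEDOT (1 of 41, beside 0.0704% of all genes called higher and 0.268% called in either direction). No collagen was called lower, beside 0.197% of all genes. In that paired fit 14 of 41 collagens had an unadjusted p under 0.05, beside 8.32% of all genes. They were 7 fibrillar, 1 basement membrane and 6 other collagens. The PEDOT level was above the PVA level in all 3 pairs for 10 collagens, beside 13.3% of all genes, and below it in all 3 pairs for 3 collagens, beside 15.6% of all genes.

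By class, the median log2 difference (PEDOT minus PVA) was 0.34 for the 11 fibrillar collagens, -0.05 for the 8 basement membrane collagens and -0.01 for the 22 tested others, beside -0.01 for all genes tested. The fibrillar median was 0.39, 0.12 and 0.10 within pairs 1, 2 and 3, so it was largest in pair 1. The median of 0.34 is the value of COL11A2, which stood at 0.39, 0.26 and 0.38 in the 3 pairs. Without the block, the fibrillar median was -0.20 when PEDOT replicate 1 was left out, 0.04 without PVA replicate 2 and 0.53 without PVA replicate 3. In these fits 1 scaffold lacked a replicate number that the other kept, so differences between numbers enter the value. With the block and replicate 1, 2 or 3 left out on both scaffolds it was 0.12, 0.38 and 0.32. The basement membrane median was -0.04, -0.10 and -0.03 in the 3 pairs, and that of the others 0.07, 0.17 and -0.08.

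**Figure D2:**
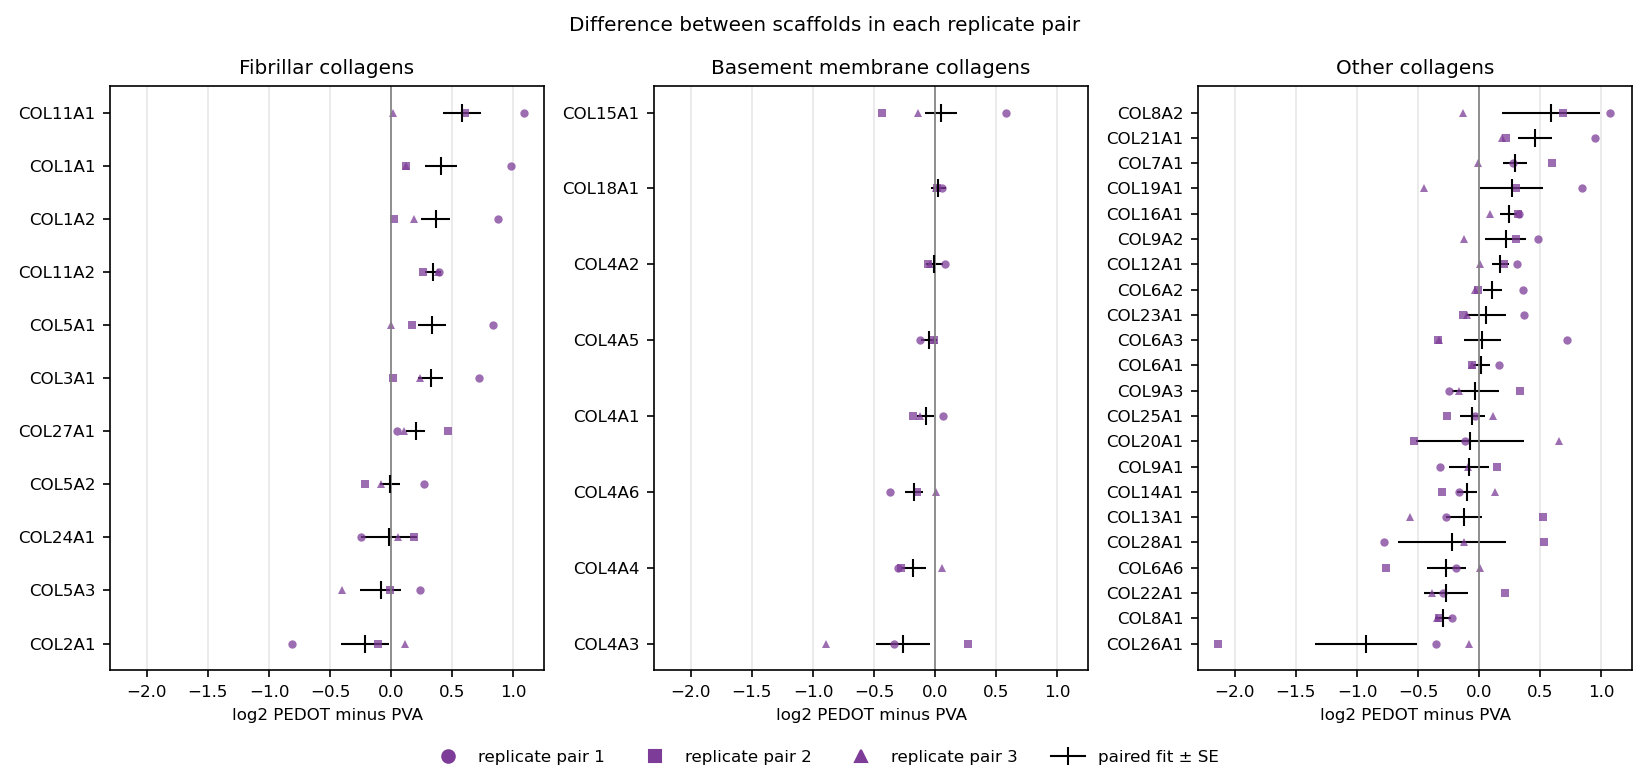
The horizontal axis is the log2 difference PEDOT minus PVA of each of the 41 tested collagens in replicate pairs 1 (circles), 2 (squares) and 3 (triangles), with the estimate of the paired fit (black bar) and its SE. COL1A1 lies at 0.98, 0.12 and 0.12, COL11A2 at 0.39, 0.26 and 0.38 and COL8A1 at -0.22, -0.33 and -0.34.

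The replicate number separated the collagens far more than the scaffold did. In a test of the 2 number coefficients together, with the scaffold in the model, 33 of 41 collagens were called, beside 31.8% of all genes. All 11 fibrillar collagens were among them, with 5 of 8 basement membrane and 17 of 22 other collagens. The level was lowest in replicate 2 for 22 of the 33, beside 47.2% of all genes called by number, in replicate 1 for 5 and in replicate 3 for 6. It was highest in replicate 2 for 6, beside 36.7% of all genes called. The mean of the highest number was over 2-fold that of the lowest for 20 of the 33, beside 34.1% of all genes called, and over 4-fold for 10, beside 10.6%. Without replicate 2, in a comparison of replicates 1 and 3 alone, 17 of 41 collagens were called, beside 13.8% of genes. In 19 of the 41 tested collagens the 4 libraries of replicate 2 lay all below the 8 libraries of replicates 1 and 3, beside 8.95% of all genes. In 4 they lay all above, beside 8% of all genes, and in 18 they overlapped.

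**Figure D3:**
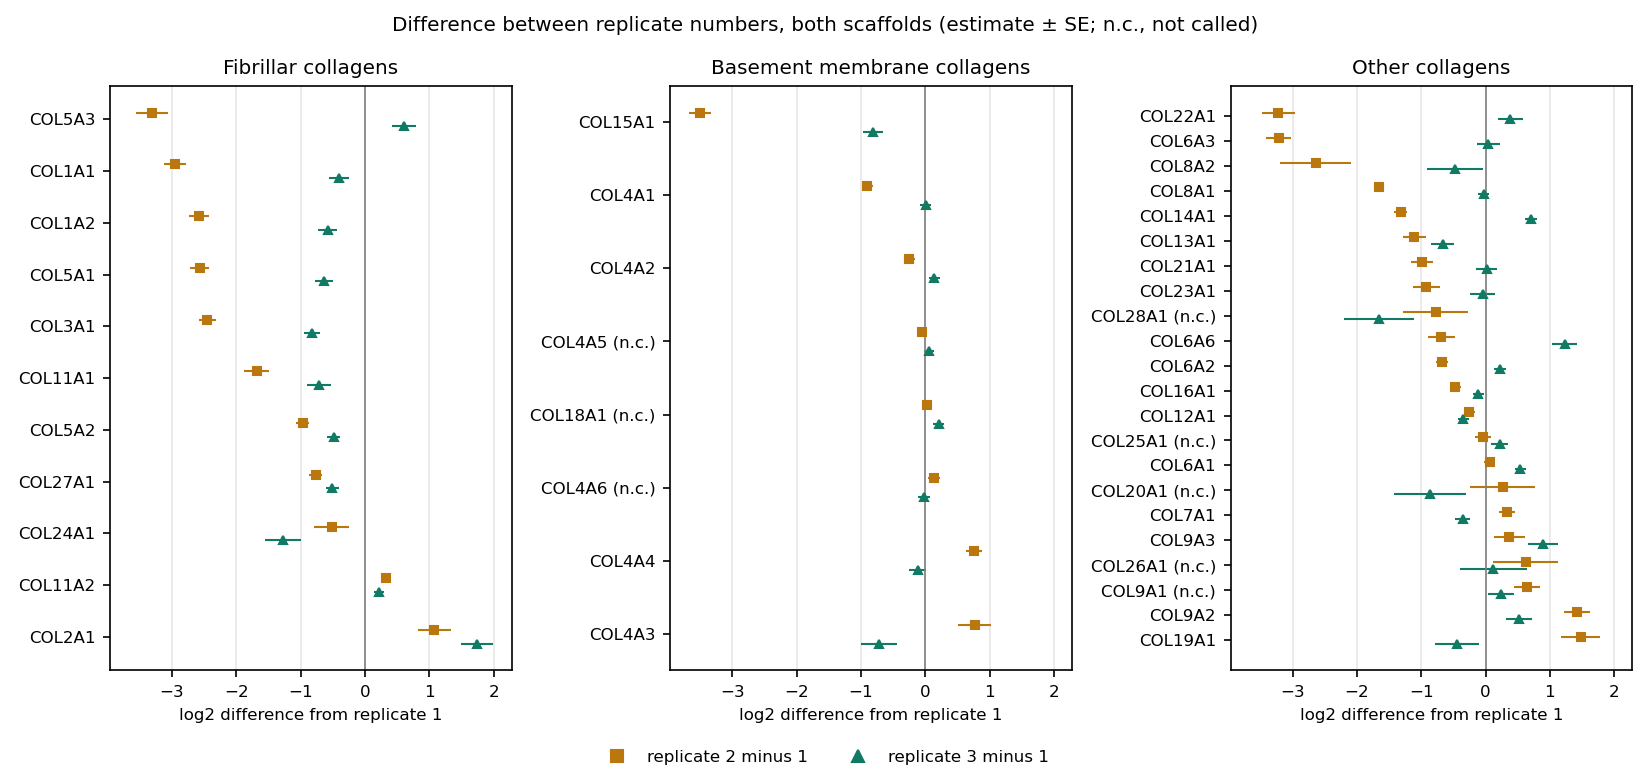
The horizontal axis is the log2 difference of replicate 2 (squares) and replicate 3 (triangles) from replicate 1 over both scaffolds, with its SE, for the 41 tested collagens by class; n.c. marks genes that were not called. The squares run from -3.51 (COL15A1) to 1.48 (COL19A1), and in 29 of 41 genes the triangle lies nearer to 0 than the square.

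Among the fibrillar collagens, COL3A1 and COL1A1 had the highest level per length of all collagens, at 141 CPM per kb each. COL1A1 (chromosome 17, 50183289 to 50201632, hg38, minus strand), the main chain of type I collagen, had 2983, 289 and 1699 CPM on PEDOT in replicates 1, 2 and 3, against 1508, 266 and 1561 CPM on PVA. The PEDOT mean was 1657 ± 1347 CPM and the PVA mean 1112 ± 733 CPM (SD, n = 3 each). PEDOT replicate 1 stood above the other 5 sums, and replicate 2 was lowest on both scaffolds. The log2 difference was 0.58 ± 0.89 (SE, adjusted p = 1.0 by edgeR) and 0.41 ± 0.13 with pairing (adjusted p = 0.347). Between the replicate numbers COL1A1 changed 8.09-fold, with means of 2245, 278 and 1630.0 CPM in replicates 1, 2 and 3 (edgeR adjusted p = 4.6e-08).

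COL1A2 (chromosome 7, 94394895 to 94431227), the partner chain of type I collagen, had 1592, 200.3 and 852 CPM on PEDOT, against 866, 197 and 749 CPM on PVA. COL3A1 (chromosome 2, 188974373 to 189012746), which forms fibrils of 3 identical chains beside type I, had 2052, 296 and 991 CPM on PEDOT, against 1249.5, 292 and 841 CPM on PVA. For both genes PEDOT was above PVA in every pair, by 0.88, 0.02 and 0.19 (log2) for COL1A2 and 0.72, 0.02 and 0.24 for COL3A1, and neither was called with pairing (adjusted p = 0.373 and 0.347, edgeR). Across the numbers the highest mean was 6.18-fold the lowest for COL1A2 and 5.61-fold for COL3A1. Per length, COL1A1 stood 1.49 to 2.30 times as high as COL1A2 in the 6 sums, in a protein that holds 2 chains of the first and 1 of the second. The ratio was lowest in replicate 2, at 1.59 on PEDOT and 1.49 on PVA.

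COL5A1 and COL5A2, the chains of type V collagen that nucleate fibrils, did not move alike. COL5A1 had 819, 111 and 397 CPM on PEDOT, against 461, 98.9 and 398 CPM on PVA. COL5A2 had 338, 146 and 215 CPM on PEDOT, against 281, 170.0 and 228 CPM on PVA. The number means differed up to 6.10-fold in COL5A1 and 1.95-fold in COL5A2, and the ratio of COL5A1 to COL5A2 per length was 1.59, 0.497 and 1.21 on PEDOT and 1.08, 0.381 and 1.15 on PVA. COL5A3, a less abundant type V chain, differed most between numbers of all collagens, 15.2-fold, at means of 4.95, 0.498 and 7.57 CPM.

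COL11A2 (chromosome 6, 33162681 to 33192499, minus strand) encodes a chain of type XI collagen, which is known from cartilage. It had 369, 445 and 429 CPM on PEDOT, against 282, 371 and 329 CPM on PVA. The scaffolds overlapped, since PVA replicate 2 lay above PEDOT replicate 1, but PEDOT was higher in 3 of 3 pairs. The means were 414 ± 39.6 CPM on PEDOT and 328 ± 44.4 CPM on PVA (SD, n = 3 each). The log2 difference was 0.34 ± 0.13 without pairing (unadjusted p = 0.0374, adjusted p = 1.0) and 0.34 ± 0.07 with pairing, a 1.27-fold higher level (adjusted p = 0.0489, edgeR). The call was kept in 4 of 21 other paired settings, over which the log2 difference was 0.29 to 0.40. Unlike most fibrillar genes COL11A2 was highest in replicate 2, with means of 326, 408 and 379 CPM in replicates 1, 2 and 3 (adjusted p = 0.0158).

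COL11A1, the gene of the partner chain, had 25.5, 6.85 and 10.8 CPM on PEDOT, against 11.98, 4.5 and 10.7 CPM on PVA. It was higher on PEDOT by 1.09, 0.60 and 0.02 (log2) in the 3 pairs and was not called with pairing (adjusted p = 0.215, edgeR). Per length COL11A2 exceeded COL11A1 19.5-fold to 111-fold in the 6 sums. The cartilage markers were low, at 9.95 to 19.5 CPM summed on PEDOT and 11.5 to 24.2 CPM on PVA, with EPYC at 0 in all libraries. COL2A1, the main collagen of cartilage, was at 0.392 CPM per kb and lay lowest in replicate 1. COL27A1 was at 3.47 CPM per kb and COL24A1 at 0.130 CPM per kb.

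**Figure D4:**
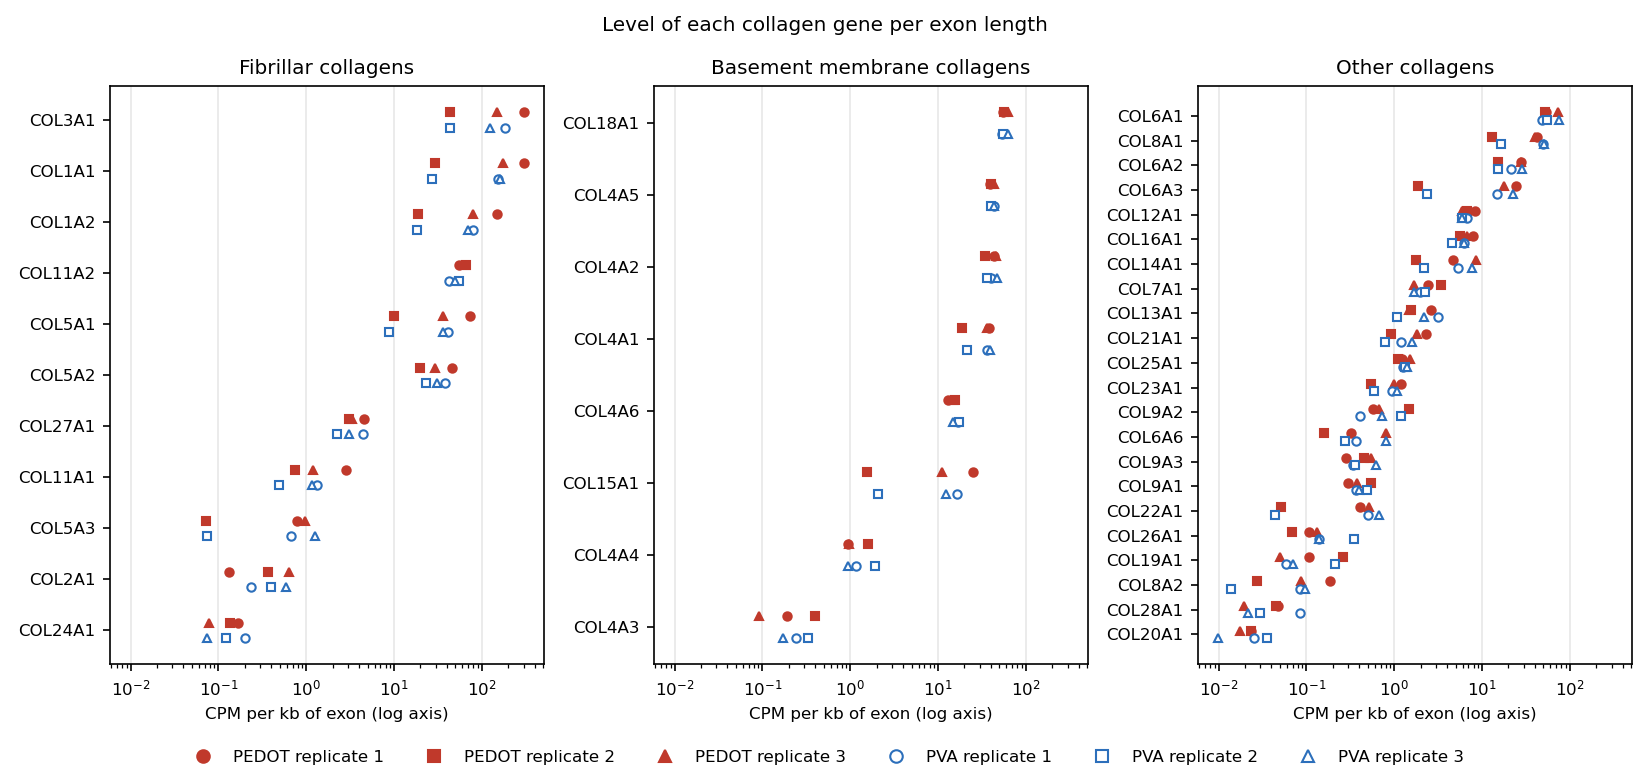
The horizontal log axis gives CPM per kb of exon of the 41 tested collagens in the 6 sums (filled red, PEDOT; open blue, PVA; circle, square and triangle, replicates 1, 2 and 3), ordered by mean level within each class. In COL3A1, COL1A1 and COL1A2 the squares of replicate 2 lie far to the left, while in COL18A1 and COL4A5 the 6 points lie together.

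The basement membrane genes differed in how steady they were. The highest of the 6 sums was from 1.09-fold (COL4A5) to 16.1-fold (COL15A1) the lowest. COL4A1 and COL4A2, whose chains form the type IV network found in most basement membranes, had mean levels of 31.6 and 41.0 CPM per kb. COL4A5 and COL4A6 were at 41.4 and 15.4 CPM per kb, and COL4A3 and COL4A4, chains of the kidney filter and other specialised membranes, at 0.239 and 1.26 CPM per kb. These 6 genes lie in 3 pairs, each pair start to start on opposite strands. Distances were taken between the RefSeq starts nearest the partner gene. They are 127 bases for COL4A1 and COL4A2 on chromosome 13, 419 for COL4A4 and COL4A3 on chromosome 2 and 380 for COL4A6 and COL4A5 on chromosome X. In the annotation used for counting, the gaps between the 2 genes are -1345 (an overlap), 171 and 347 bases.

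The start regions are shown because each pair has its start sites so close together, and its chains were measured at unlike levels. Each line is the RefSeq sequence (GRCh38.p14, 5′ to 3′ on the named gene's strand) of the 250 bases before to 50 after a start, with CCAAT and GGGCGG on either strand in capitals. The COL4A1 window (chr13:110307108-110307407, minus strand) also holds the COL4A2 start.
COL4A1: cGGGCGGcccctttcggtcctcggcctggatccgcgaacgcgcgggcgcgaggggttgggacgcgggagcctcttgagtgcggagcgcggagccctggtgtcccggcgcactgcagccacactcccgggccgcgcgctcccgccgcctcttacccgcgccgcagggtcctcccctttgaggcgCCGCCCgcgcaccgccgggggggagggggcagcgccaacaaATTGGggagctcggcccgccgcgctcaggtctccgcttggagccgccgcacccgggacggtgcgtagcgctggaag
COL4A4 (chr2:227164156-227164455, minus strand): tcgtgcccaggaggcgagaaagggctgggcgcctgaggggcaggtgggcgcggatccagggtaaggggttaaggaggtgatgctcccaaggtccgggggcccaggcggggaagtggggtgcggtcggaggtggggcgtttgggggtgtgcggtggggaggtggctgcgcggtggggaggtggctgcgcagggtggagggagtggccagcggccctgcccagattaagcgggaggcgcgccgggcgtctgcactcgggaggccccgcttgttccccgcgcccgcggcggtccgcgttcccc
COL4A3 (chr2:227164374-227164673, plus strand): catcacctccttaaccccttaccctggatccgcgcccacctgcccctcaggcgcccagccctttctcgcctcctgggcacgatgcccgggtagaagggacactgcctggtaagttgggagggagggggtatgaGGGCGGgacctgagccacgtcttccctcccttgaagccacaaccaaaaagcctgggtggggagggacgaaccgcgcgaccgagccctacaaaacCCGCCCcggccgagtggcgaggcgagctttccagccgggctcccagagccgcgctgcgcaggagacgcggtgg
COL4A6 (chrX:108439409-108439708, minus strand): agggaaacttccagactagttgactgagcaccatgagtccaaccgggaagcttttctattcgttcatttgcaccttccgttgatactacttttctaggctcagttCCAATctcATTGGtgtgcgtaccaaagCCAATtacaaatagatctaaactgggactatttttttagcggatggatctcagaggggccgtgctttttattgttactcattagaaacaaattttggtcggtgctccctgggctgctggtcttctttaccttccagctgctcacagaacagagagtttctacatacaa
COL4A5 (chrX:108439588-108439887, plus strand): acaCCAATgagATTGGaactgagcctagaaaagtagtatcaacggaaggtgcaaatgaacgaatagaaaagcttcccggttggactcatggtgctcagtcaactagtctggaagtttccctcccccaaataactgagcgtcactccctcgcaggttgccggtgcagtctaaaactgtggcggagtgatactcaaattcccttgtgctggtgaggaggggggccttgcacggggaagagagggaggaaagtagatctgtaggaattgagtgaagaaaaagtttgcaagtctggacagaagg

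The COL4A1 window holds 1 CCAAT and 2 GGGCGG, the COL4A3 window 2 GGGCGG and no CCAAT, and the COL4A4 window neither. The windows of COL4A6 and COL4A5 hold 3 and 2 CCAAT and no GGGCGG. These windows overlap each other, so the 2 CCAAT of COL4A5 are also counted in COL4A6. Those of COL4A4 and COL4A3 overlap as well. Guanine and cytosine made up 76.7% of the COL4A1 window, 74.0% of COL4A4, 67.7% of COL4A3, 43.7% of COL4A6 and 49.3% of COL4A5. The motif CCAAT stands in 34.6% of all 35116 RefSeq windows of this length and in 31.8% of the 44 windows of collagens. GGGCGG stands in 45.0% of all windows and 54.5% of those of collagens. TATAAA stands in 11.5% of all windows and 18.2% of those of collagens. A match describes letters only. COL1A1, COL1A2, COL2A1, COL3A1, COL5A2, COL6A1, COL6A5, COL8A1, COL9A3, COL14A1, COL20A1 and COL22A1 had no window in the table used.

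COL4A1 (chromosome 13, 110148963 to 110307157, minus strand) had 558, 275 and 527 CPM on PEDOT, against 533, 311 and 574 CPM on PVA. COL4A2 (110305812 to 110513209, plus strand) had 827, 665 and 875 CPM on PEDOT, against 782, 692 and 902 CPM on PVA. The scaffolds overlapped in both genes, with log2 differences of -0.06 ± 0.32 and -0.01 ± 0.15 (SE). Replicate 2 was lowest in both, by 1.88-fold below the highest number in COL4A1 and 1.31-fold in COL4A2 (edgeR adjusted p = 2.7e-06 and 0.00761). The ratio of COL4A1 to COL4A2 per length was 0.886, 0.543 and 0.791 on PEDOT and 0.895, 0.591 and 0.836 on PVA, below 1 in 12 of 12 libraries and lowest in replicate 2 on both scaffolds.

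COL4A5 and COL4A6 were not called between replicate numbers (edgeR adjusted p = 0.554 and 0.322). COL4A5 had 469, 473 and 509 CPM on PEDOT, against 512, 475 and 512 CPM on PVA, and the means were 484 ± 22.5 CPM on PEDOT and 499.7 ± 21.7 CPM on PVA (SD, n = 3 each). COL4A6 had 122, 144 and 137 CPM on PEDOT, against 157, 161 and 136 CPM on PVA. COL4A6 had the smallest unadjusted p between scaffolds of its class (0.147), a log2 difference of -0.17 ± 0.11 (SE), and was lower on PEDOT in 2 of 3 pairs. Per length COL4A5 stood 2.31 to 3.01 times as high as COL4A6.

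COL4A4 had 9.43, 16.05 and 9.83 CPM on PEDOT, against 11.6, 19.4 and 9.45 CPM on PVA. COL4A3 had 1.74, 3.62 and 0.830 CPM on PEDOT, against 2.21, 3.00 and 1.58 CPM on PVA. Both were highest in replicate 2, the opposite of COL4A1 and COL4A2, and all 4 libraries of replicate 2 lay above the other 8 in both genes. The number means differed up to 1.84-fold in COL4A4 and 2.75-fold in COL4A3 (edgeR adjusted p = 0.000118 and 0.00252). COL4A3 shares 838 exon bases with MFF-DT, a noncoding gene on the opposite strand, and the reads were counted by strand.

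COL18A1 (chromosome 21, 45405165 to 45513720), whose C-terminal end can be released as endostatin, had 468, 473 and 532 CPM on PEDOT, against 451, 467 and 528 CPM on PVA. Its level of 57.5 CPM per kb was the highest of the basement membrane class, and it was not called between scaffolds or numbers (number adjusted p = 0.107, edgeR). COL15A1 (chromosome 9, 98943179 to 99070792), of the same multiplexin family, was among the least steady collagens. It had 164, 10.2 and 73.9 CPM on PEDOT, against 110.0, 13.8 and 81.3 CPM on PVA. Replicate 2 was at or below 14.5 CPM in its 4 libraries, against 72.2 to 171 CPM in the other 8, and the highest number mean was 11.4-fold the lowest (adjusted p = 1.3e-08).

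COL15A1 was also the collagen whose scaffold difference depended on the replicate number, the one called of 41 beside 0.282% of all genes. PEDOT minus PVA was 0.58, -0.44 and -0.14 (log2) in pairs 1, 2 and 3, with an edgeR adjusted p of 0.0363 for the 2 interaction coefficients. The spread in that fit is only the one between technical libraries, so it does not speak of separate cultures. With genes of a mean CPM of 5 or more the adjusted p was 0.0664.

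**Figure D5:**
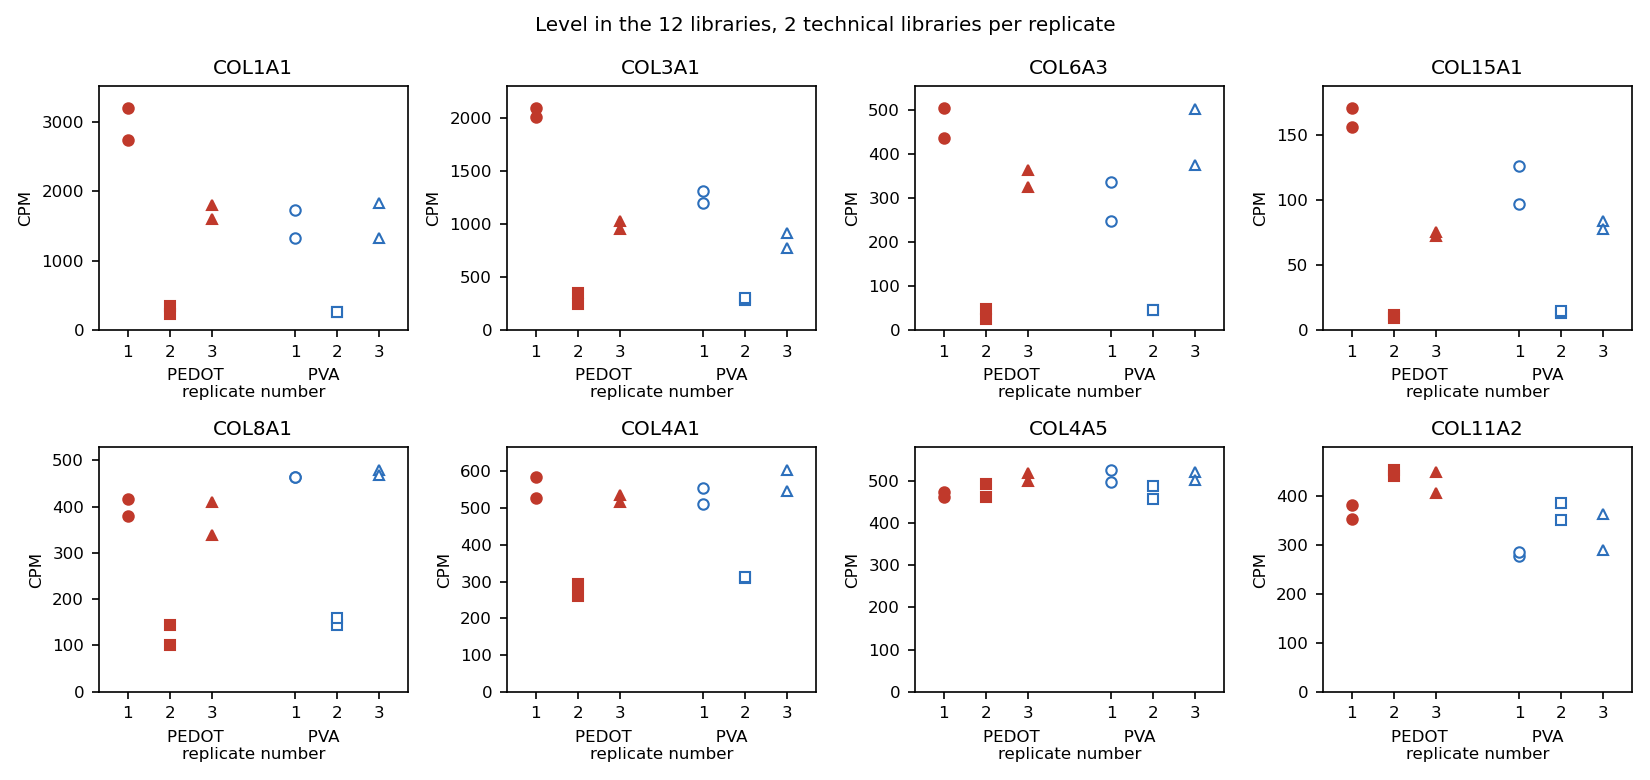
The vertical axes give CPM in each of the 12 libraries for 8 collagens, by scaffold (filled red, PEDOT; open blue, PVA) and replicate number, with 2 technical libraries per number. The 4 libraries of replicate 2 lie below the other 8 in COL1A1, COL3A1, COL6A3, COL15A1, COL8A1 and COL4A1, and overlap with them in COL4A5 and COL11A2.

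Of the other collagens, the 3 abundant type VI chains, which assemble into beaded filaments around cells, changed unequally. COL6A1 had 285, 276 and 384 CPM on PEDOT, against 254, 288 and 399 CPM on PVA. COL6A2 had 146, 81.2 and 149.96 CPM on PEDOT, against 114, 81.5 and 153 CPM on PVA. COL6A3 had 473, 36.1 and 345 CPM on PEDOT, against 287, 45.5 and 434 CPM on PVA. All 3 were called between numbers, by 1.45-fold, 1.87-fold and 9.54-fold (edgeR adjusted p = 0.000296, 1.9e-05 and 5.3e-08), and COL6A1 was lowest in replicate 1 while the others were lowest in replicate 2. Although the protein takes up 1 chain of each, COL6A3 per length was 0.453, 0.0357 and 0.245 of COL6A1 on PEDOT and 0.309, 0.0431 and 0.297 of it on PVA. The 2 technical libraries of PEDOT replicate 2 held 25.3 and 47.7 CPM of COL6A3. COL6A6 was at 0.455 CPM per kb, highest in replicate 3.

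COL8A1 (chromosome 3, 99638475 to 99799226), a short-chain collagen of vessel walls and remodelling heart, had 399, 122 and 375 CPM on PEDOT, against 465, 153 and 475 CPM on PVA. PEDOT was lower in 3 of 3 pairs, by similar amounts, and the scaffolds overlapped. The paired log2 difference was -0.30 ± 0.07 (SE), a level of 0.814 of PVA, which did not pass (edgeR adjusted p = 0.0981), while paired DESeq2 called both COL8A1 and COL11A2. Across the numbers the mean of replicate 2 was 137 CPM, beside 432 and 425 CPM in replicates 1 and 3 (adjusted p = 6.2e-09). COL8A2 was far lower, at 0.0821 CPM per kb, and was also lowest in replicate 2.

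The FACIT collagens sit on fibril surfaces, and COL12A1, COL16A1 and COL14A1 were the most abundant of the 10, at 6.58, 6.18 and 5.02 CPM per kb. COL12A1 had 104, 84.2 and 73.8 CPM on PEDOT, against 84.1, 73.3 and 73.3 CPM on PVA. COL16A1 had 72.2, 52.0 and 61.6 CPM on PEDOT, against 57.7, 41.8 and 57.7 CPM on PVA. Both were higher on PEDOT in 3 of 3 pairs without a call (paired adjusted p = 0.522 and 0.255, edgeR), as was COL21A1 (0.305). COL14A1, which binds fibrils through small proteoglycans, had 47.9, 18.2 and 86.2 CPM on PEDOT, against 53.6, 22.5 and 78.6 CPM on PVA, and its number means differed 4.05-fold (adjusted p = 1.5e-08). COL22A1, a chain of the muscle and tendon junction, differed 12.3-fold, at 3.57, 0.379 and 4.67 CPM in replicates 1, 2 and 3. COL19A1 and COL9A2 were instead highest in replicate 2, at 2.57 and 5.59 CPM. COL9A3 was lowest in replicate 1, and COL9A1 and COL20A1 were not called between numbers.

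COL7A1, which forms anchoring fibrils, had 26.6, 37.3 and 18.7 CPM on PEDOT, against 22.0, 24.6 and 18.8 CPM on PVA, highest in replicate 2 on both scaffolds. The transmembrane collagens COL13A1 and COL23A1 were lowest in replicate 2, by 2.18-fold and 1.89-fold below the highest number, while COL25A1, at 1.30 CPM per kb, was not called. COL26A1 and COL28A1, given no structural class here, were at 0.156 and 0.0413 CPM per kb and were called in none of the scaffold, number and interaction tests. COL26A1 had 0.330, 0.215 and 0.404 CPM on PEDOT, against 0.433, 1.09 and 0.430 CPM on PVA. It was the 1 collagen of 41 whose scaffolds did not overlap, beside 4.60% of all genes, while no collagen had its 3 PEDOT sums all above PVA, beside 2.28%. Its log2 difference of -1.02 ± 0.48 (SE) had an adjusted p of 1.0 by edgeR.

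The genes that make, export and bind collagens were examined in 6 lists of 62 genes, 61 of them tested. None was called between scaffolds with or without pairing (edgeR, beside 0% and 0.268% of all genes), and at an unadjusted p under 0.05 the lists had 0 genes without pairing, beside 0.892% of all genes, and 12 of 61 with it, beside 8.32%. Between replicate numbers 43 of 61 were called, beside 31.8% of all genes. Of the 43, 32 had their lowest mean in replicate 2, beside 47.2% of all genes called, and 7 their highest, beside 36.7%. The counts of each list below stand against these same shares.

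Of the genes of prolyl and lysyl hydroxylation, which stabilise the helix, 11 of 15 were called between numbers and all 11 were lowest in replicate 2. They were P4HA1, P4HA2, P4HA3, P4HB, P3H1, P3H2, P3H3, P3H4, PPIB, PLOD1 and PLOD2. P4HB, the shared subunit of prolyl 4-hydroxylase, had 485, 391 and 428 CPM on PEDOT, against 547, 412 and 465 CPM on PVA, and P4HA2, a catalytic subunit, had 119.7, 54.1 and 65.2 CPM on PEDOT, against 106, 43.4 and 69.4 CPM on PVA. PPIB, a proline isomerase, was the second highest of the list per length, at 43.1 CPM per kb after 86.9 for P4HB. Of folding and export, 6 of 11 were called and lowest in replicate 2: SERPINH1, FKBP10, FKBP14, SEC24D, KDELR2 and PDIA3. SERPINH1, the collagen chaperone HSP47, had 321, 185 and 223 CPM on PEDOT, against 312, 192 and 277 CPM on PVA. HSPA5, a general chaperone and the highest of that list at 124 CPM per kb, was not called.

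Of procollagen processing 6 of 8 were called, with ADAMTS2, ADAMTS3, ADAMTS14, TLL2 and PCOLCE lowest in replicate 2 and BMP1 lowest in replicate 3. ADAMTS2, which removes the amino-terminal propeptide, had 37.5, 6.38 and 20.6 CPM on PEDOT, against 33.05, 4.94 and 22.8 CPM on PVA. ADAMTS14 and BMP1 were the highest of that list, at 23.2 and 10.7 CPM per kb. All 7 cross-linking genes were called. LOX, the lysyl oxidase that starts collagen cross-links, had 223, 14.1 and 77.0 CPM on PEDOT, against 100.5, 6.92 and 97.2 CPM on PVA, lowest in replicate 2 with LOXL2, LOXL3 and PXDN. LOXL1 and LOXL4 were highest in replicate 2, and TGM2, the transglutaminase and the highest of the list at 121 CPM per kb, was lowest in replicate 1.

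Of the collagen receptors 8 of 10 tested were called. DDR2, ITGA1, ITGA11, MRC2 and ADGRG6 were lowest in replicate 2, and DDR1, ITGA2 and ITGA10 were highest there. The discoidin domain receptors thus differed in direction. DDR2 had 56.0, 9.41 and 46.4 CPM on PEDOT, against 38.5, 9.05 and 42.5 CPM on PVA. DDR1 had 156, 224 and 158 CPM on PEDOT, against 149.6, 228 and 165 CPM on PVA. ITGB1, the shared beta chain of the collagen-binding integrins and the highest of the list at 94.5 CPM per kb, was not called. ITGA1, its partner in a receptor for type IV collagen, had the smallest paired p of the lists and did not pass (log2 -0.29 ± 0.06, edgeR adjusted p = 0.0865).

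Of 10 basement membrane partners 5 were called, nearer to the 31.8% of all genes than the other lists. LAMB2 was highest and NID1 lowest in replicate 2, LAMB1 and LAMA4 were lowest in replicate 1 and AGRN was lowest in replicate 3. LAMB1, a laminin beta chain, averaged 50.9, 124.1 and 123.1 CPM in replicates 1, 2 and 3, so replicates 2 and 3 stood level. LAMB2, another laminin beta chain, had 968, 1183 and 1109 CPM on PEDOT, against 906, 1214 and 1060.1 CPM on PVA. NID1, which links laminin to type IV collagen, had 259, 153 and 223 CPM on PEDOT, against 297, 179 and 266 CPM on PVA. HSPG2, the core protein of perlecan and the highest of the list at 159 CPM per kb, had 3025, 3450.4 and 2928 CPM on PEDOT, against 2509.8, 2774 and 2648 CPM on PVA. Its 3 PEDOT sums lay all above the 3 PVA sums, as did those of MIA2 in folding and export, beside 2.28% of all genes. HSPG2 was not called with pairing (adjusted p = 0.322, edgeR).

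In most lists, markers of other cell types differed between the replicate numbers, in counts to be read beside the 31.8% of all genes called. Counts lowest or highest in replicate 2 stand beside 47.2% and 36.7% of all genes called. The 8 fibroblast markers together had 140.4, 21.3 and 75.3 CPM on PEDOT, against 73.6, 19.6 and 85.8 CPM on PVA, and 6 of 6 tested were called between numbers, all lowest in replicate 2. As for COL1A1, PEDOT replicate 1 was highest and the sums of replicate 2 were lowest. The smooth muscle and pericyte markers had 752, 345 and 517 CPM on PEDOT, against 837, 423 and 668 CPM on PVA. Most of this was RGS5 and CNN1, and 7 of 7 tested markers were called and lowest in replicate 2. RGS5, a pericyte gene of that list, was lower on PEDOT with pairing (log2 -0.46 ± 0.06, edgeR adjusted p = 0.00795), beside 0.197% of all genes called lower. Without pairing 0 genes of that list were called. The cardiomyocyte markers were called in 8 of 8, with 6 highest in replicate 2.

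Epicardial markers, most of it LRRN4 and WT1, summed to 135 to 234 CPM on PEDOT and 140.4 to 223 CPM on PVA. Of 7 tested 6 were called, 4 of them lowest in replicate 2. Endothelial markers, most of it KDR, summed to 14.3 to 19.9 CPM on PEDOT and 19.8 to 24.2 CPM on PVA. Of 8 tested 2 were called, a share below that of all genes. Epithelial and endoderm markers, most of it KRT8, summed to 739.9 to 1059 CPM on PEDOT and 792 to 1080.0 CPM on PVA, with 5 of 6 tested called. Neural and neural crest markers, mostly STMN2 and SNAP25, summed to 19.9 to 38.5 CPM on PEDOT and 20.2 to 48.9 CPM on PVA. Of these, 3 of 3 tested were called, as were 3 of 4 tested cartilage markers. In bulk RNA, fewer cells of a type and less RNA per cell cannot be told apart, and the part of other cell types in the collagen levels was not tested.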

How the data were processed

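RNA sequencing counts of 12 libraries were analysed. Per the file headers, the values are raw read-pair counts by gene name, deposited without normalization and made by featureCounts 2.0.1 for paired-end, reversely stranded reads over GENCODE release 33; the exon length of each gene is the one other value deposited. The submitters' processing notes list the tools STAR, FastQC, edgeR, DESeq2 and featureCounts and the genome hg38. The version of the aligner is not given in the sources used here. The recorded command has no option for reads that match several places. Exons that collagens share with other genes lie on the opposite strand, apart from a few bases of microRNA genes.

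Technical libraries differed by more than sampling noise (chi-square per gene 5.44 to 13.4) and were added up per biological replicate, 3 sums per scaffold. After filterByExpr (a minimum count of 10 and total of 15) and TMM scaling, edgeR 4.0.16 in R 4.3.3 fitted the scaffold alone (quasi-likelihood, two-sided, Benjamini-Hochberg over all 21298 genes, threshold 0.05). A standard error is the log2 difference over the square root of F. The replicate number was tested with the scaffold in the model, and the interaction on 12 libraries. DESeq2 1.42.0, upper-quartile scaling, other filters and left-out replicates or libraries were alternatives. The fits were tested on simulated data, where those with the replicate number in the model made more false calls than the threshold allows for, so calls close to it, such as that of COL11A2, are less certain than their adjusted p.

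Same-numbered sums deviated together from their scaffold means (correlations of 0.678, 0.703 and 0.503 across genes) and were therefore taken as pairs, which rests on the values because no label states it. Log2 differences within pairs used a prior count of 2.

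The members, classes and lists were chosen with earlier results of these data known. Named with values are collagens called between scaffolds, the 6 fibrillar, 4 basement membrane and 8 other collagens of highest level per length, the 2 of smallest p per class in the scaffold and number tests, and the type IV pairs; of the lists, called members are named, with values for some of them and the level of the highest. COL5A3, COL22A1 and the other genes given beside these were chosen after their values were seen. Promoter windows are from RefSeq (GRCh38.p14): 32 of the 44 collagens matched. Depth was 19.1 to 30.95 M counts per library.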

Additional observations from a re-analysis of the deposited data

Results flagged for a closer look

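The scaffold difference of COL15A1, a basement membrane collagen of the multiplexin family, differed between the replicate numbers (edgeR, 2 interaction coefficients on 12 libraries, adjusted p = 0.0363). PEDOT minus PVA was 0.58 on the log2 scale in pair 1, -0.44 in pair 2 and -0.14 in pair 3, from levels of 164, 10.2 and 73.9 CPM on PEDOT and 110.0, 13.8 and 81.3 CPM on PVA. The test rests on the spread between technical libraries alone, and what distinguishes the numbers was not tested.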

How the results depend on the processing

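Over 32 alternative settings of the scaffold comparison 24 called no collagen. With the replicate block the count was 1 (COL11A2), with the block and DESeq2 2 (COL11A2 and COL8A1) and with the block and no filter 8. With the block it was 1 (COL11A1) in the lower-numbered technical libraries alone. Leaving out a replicate number gave 0 to 6, with 3 without replicate 1 (COL11A2, COL6A3, COL8A1), 0 without replicate 2 and 6 without replicate 3 (COL1A1, COL1A2, COL5A1, COL11A1, COL7A1, COL21A1). Leaving out single libraries with the block, a choice made after seeing the data, gave 0 to 1: COL11A2 without library 2 of PVA replicate 1, and COL11A1 without library 3 of PVA replicate 3. Over the paired settings the adjusted p of COL11A2 was 0.000128 to 0.148. Of all genes, 57 were called with the block, 97 with DESeq2 and the block, 1 with upper-quartile scaling, 389 with no filter, 1 when only genes averaging at least 5 CPM were kept, 16 and 4 in the lower-numbered and higher-numbered libraries, 170, 22 and 284 without replicates 1, 2 and 3. Without single libraries it was 15, 4, 35, 63, 27 and 39 for the 6 of PEDOT and 73, 22, 45, 28, 36 and 63 for the 6 of PVA; without the block, 0 in every setting run. The causes of these changes were not tested.

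The fibrillar median was -0.20 to 0.53 without the block when a replicate of 1 scaffold was left out, including 0.04 without PVA replicate 2. With the block and a number left out on both scaffolds it was 0.12 (without replicate 1) to 0.38 (without replicate 2). With replicates left out the basement membrane median was -0.088 to 0.033 without the block (0.0091 without PEDOT replicate 2) and -0.095 to -0.039 with it. The median of the others was -0.050 to 0.24, and 0.13 when only genes averaging at least 5 CPM were kept. The replicate-number count of 33 of 41 collagens was 22 to 34 in other settings, in which the number tested also changed. It was 22 of 26 tested at a mean CPM of 5 or more, beside 40.5% of all genes. With no filter it was 34 of 44, beside 19.4%. With numbers left out (added after seeing the data) it was 17 to 30. These were 17 of 41 without replicate 2, beside 13.8% of all genes, and 30 of 42 without replicate 3, beside 28.3%. The interaction count of 1, beside 0.282% of all genes, was 10 with no filter, 0 at the same 5 CPM minimum and 2 with DESeq2 (COL3A1 and COL15A1). The share of all genes called in those other settings was not computed, so these counts cannot be read as particular to collagens. Collagens below 1 CPM rest on few counts.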
